A study of Oryza sativa with 18 samples.

Results

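The genes of leaf starch synthesis were followed in rice (Oryza sativa) flag leaves during grain filling. They are 10 genes chosen by locus out of the 55986 genes in the deposited table. They are 3 subunit genes of ADP-glucose pyrophosphorylase (AGPS1, AGPS2 and AGPL), 2 starch synthases (GBSSII and SSI), 3 branching enzymes (BEI, BEIIa and BEIIb), the glucose 6-phosphate translocator GPT1 and the plastid phosphorylase PHOL. All 10 were found and all 10 passed the filter on low counts.

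The study sequenced total RNA from flag leaves of paddy-grown plants in 3 genotypes of OsPHO1;2, a phosphate exporter gene. These are the mutant Ospho1;2-Ko1 (Ko1), the overexpression line OsPHO1;2-OE (OE) and the wild type (WT). Leaves of each genotype were taken at 15DAF and at 5DAF, where DAF usually stands for days after flowering, with 3 libraries in each of the 6 groups. Groups are named below by genotype and stage. Neither the kind of mutation in Ko1 nor the promoter that drives OE is given in the sources used here. Ko1 and OE may each be 1 line, in which case gene and line background cannot be told apart. The labels do not say whether each replicate is a separate plant, so the p-values reflect the spread of these libraries alone, and that spread may be technical.

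Leaves hold starch as a store that is filled in the light and drawn down at night. ADP-glucose pyrophosphorylase, built of small and large subunits, makes the glucosyl donor ADP-glucose. Starch synthases add its glucose to growing chains, and branching enzymes cut and rejoin those chains to make amylopectin. GPT1 carries glucose 6-phosphate across the plastid envelope, and the plastid phosphorylase can lengthen or shorten glucan chains with glucose 1-phosphate.

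The libraries held between 13223554 and 18264909 counts, and 20437 genes were tested. The leaf label was checked with 7 photosynthesis genes, all of which were detected in every group. Their summed level lay between 8283 and 22050.4 CPM in the Ko1 15DAF libraries and between 10856 and 24130.1 CPM in the libraries of the other groups. OsPHO1;2 itself had 6.1001, 6.14 and 6.07 CPM in Ko1 15DAF libraries, 17.995, 4.75 and 29.5 CPM in OE 15DAF libraries and 1.78, 2.58 and 3.25 CPM in WT 15DAF libraries. At 5DAF it had 3.38, 2.78 and 1.102 CPM in Ko1, 5.91, 8.89 and 9.74 CPM in OE and 1.72, 3.52 and 2.25 CPM in WT. Every OE library was above every WT library of its stage, without passing the test (2.77 log2 units and edgeR adjusted p = 0.122 at the later stage, 1.71 and 0.405 at the earlier). The libraries labelled Ko1 were above WT at 15DAF (1.25, edgeR adjusted p = 0.114) and overlapped WT at 5DAF (−0.05, edgeR adjusted p = 0.973), so the transcript level does not check the mutant label. Ko1 below means the libraries labelled so. Several 5DAF libraries had a higher mean correlation across genes with another group than with their own, so this measure alone does not mark a library as misplaced. WT 5DAF replicates 1 and 2 were at 0.9685 and 0.9564 to OE 5DAF, against 0.9503 and 0.9468 to WT 5DAF. Ko1 5DAF replicate 1 was at 0.9564 to WT 5DAF, against 0.9521 to Ko1 5DAF. The library labelled WT 5DAF replicate 3 was at 0.9604 to the 3 libraries of Ko1 5DAF, against 0.9363 to the other WT 5DAF libraries. It was kept under its label, and log2 fold changes without it are given for the comparisons that use WT 5DAF.

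The genes lie on 8 chromosomes, and the sources used here do not name the rice build of their coordinates. AGPS1 (LOC_Os09g12660) is on chromosome 9 from 7245359 to 7249816, AGPS2 (LOC_Os08g25734) on chromosome 8 from 15666201 to 15672594, and AGPL (LOC_Os05g50380) on chromosome 5 from 28871794 to 28877277. The table describes all 3 as large subunits of glucose-1-phosphate adenylyltransferase, another name of the same enzyme, although AGPS1 and AGPS2 are small subunit genes by their names. GBSSII (LOC_Os07g22930) is on chromosome 7 from 12916277 to 12924325 and SSI (LOC_Os06g06560) on chromosome 6 from 3079059 to 3086808, both described as starch synthases. The branching enzymes are BEI (LOC_Os06g51084) on chromosome 6 from 30897376 to 30905815, BEIIa (LOC_Os04g33460) on chromosome 4 from 20239790 to 20243460 and BEIIb (LOC_Os02g32660) on chromosome 2 from 19355748 to 19367127. GPT1 (LOC_Os08g08840) is on chromosome 8 from 5139637 to 5143709, described as a phosphate/phosphate translocator, and PHOL (LOC_Os03g55090) is on chromosome 3 from 31332396 to 31339163, described as an alpha-glucan phosphorylase isozyme. Whether counting used strand is not stated, so reads of antisense or overlapping transcripts and of these genes cannot be told apart.

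The levels of the 10 genes were compared with each other per gene length, in the deposited FPKM (fragment counts scaled to gene length and library size). GBSSII, the granule-bound synthase of leaves, had the highest mean FPKM of the 10 at 15DAF in each genotype, with 264 ± 99.7 FPKM in Ko1, 164 ± 80.9 FPKM in OE and 109 ± 8.09 FPKM in WT (SD, n = 3 each). It made up 45.1% of the summed FPKM of the 10 genes in Ko1, 32.1% in OE and 33.1% in WT. AGPS2 came second in Ko1 (129.7 ± 18.2 FPKM) and in WT (59.1 ± 1.28 FPKM), where its libraries did not overlap those of GBSSII. In OE BEIIa came second at 101 ± 43.9 FPKM and its libraries overlapped those of GBSSII. At 5DAF AGPS2 came first, at 60.3 ± 4.35 FPKM in Ko1, 58.1 ± 1.32 FPKM in OE and 56.1 ± 7.69 FPKM in WT. GBSSII followed with 27.4 ± 4.82 FPKM in Ko1, 39.6 ± 18.98 FPKM in OE and 49.98 ± 7.91 FPKM in WT, and only in Ko1 did its libraries lie clear of those of AGPS2, which describes these libraries without a test.

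BEIIb was the lowest of the 10 in all 6 groups, at 0.727 to 2.64 FPKM on average, and in each group its libraries lay below those of the next gene except in WT 5DAF. The middle of the order held SSI, BEI, PHOL, BEIIa, GPT1, AGPL and AGPS1, most of them overlapping with their neighbours. FPKM rests on the gene length that the deposited values imply, which was 1266 bases for BEIIa and 7198 bases for BEI. BEIIa therefore stands higher, and BEI lower, per length than in counts. The plot of FPKM by gene and group shows these levels.

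**Figure D1:**
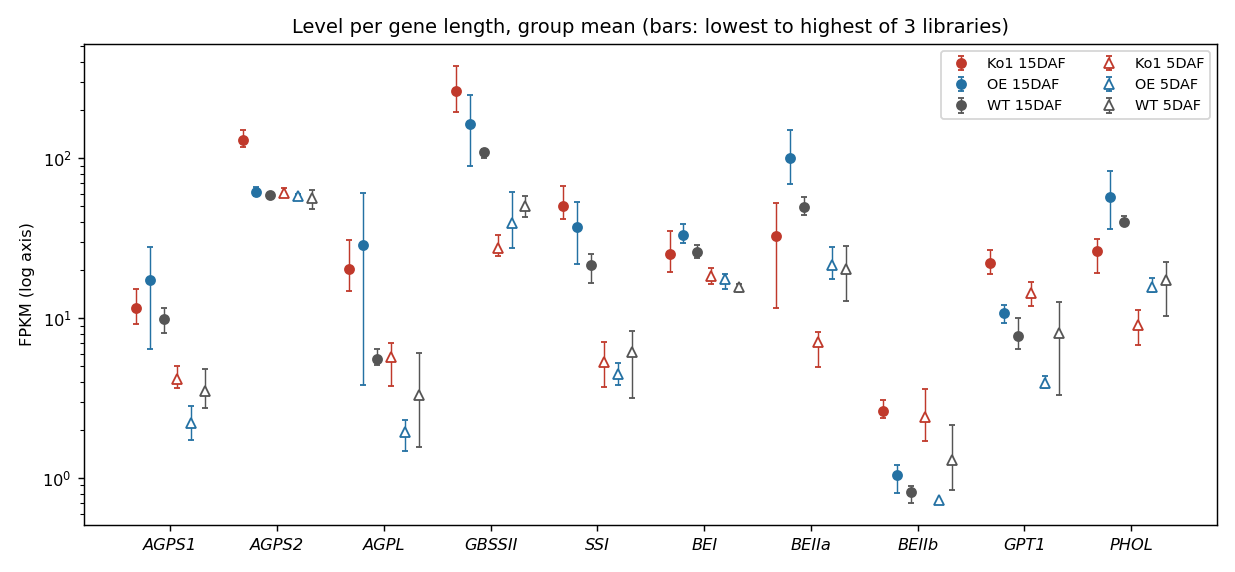
Deposited FPKM on a log axis for the 10 genes, as the mean of each group (points) with bars from the lowest to the highest of its 3 libraries; filled circles are 15DAF and open triangles 5DAF. GBSSII is the highest gene at 15DAF and AGPS2 at 5DAF, BEIIb is the lowest in every group, and the AGPS2 point of Ko1 15DAF stands clear of the other 5 groups.

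At 15DAF Ko1 leaves had more transcript than WT leaves for 5 of the 10 genes and less for 0. The 5 were AGPS2, GBSSII, SSI, BEIIb and GPT1, which act in the supply of ADP-glucose, in chain elongation, in branching and in the import of glucose 6-phosphate. Of all genes tested, 6.53% were higher and 4.43% lower in this comparison by the same rule (edgeR adjusted p under 0.05). All 3 Ko1 libraries lay above all 3 WT libraries for 6 of the 10, against 18.7% of all genes, and below them for 1, PHOL, against 19.0%. The median log2 fold change was 1.16 over the 10 genes and 0.01 over all genes tested. In bulk leaf samples fewer cells of a type and less RNA per cell cannot be told apart.

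AGPS2 (small subunit) had 259, 275 and 337 CPM (counts scaled to a common library size and composition) in Ko1 15DAF libraries, 130.3, 138 and 142 CPM in OE 15DAF libraries and 135, 129.8 and 137 CPM in WT 15DAF libraries. The Ko1 libraries lay clear above those of OE and WT, which overlapped each other within a narrow range. Mean levels were 291 ± 40.8 CPM in Ko1, 137 ± 6.06 CPM in OE and 134 ± 3.84 CPM in WT (SD, n = 3 each). AGPS2 rose in Ko1 by 1.12 log2 units over WT (SE 0.131, edgeR adjusted p = 7.36e-05, 2.17-fold), and by 1.09 over OE (SE 0.131, edgeR adjusted p = 8.63e-05). The call against WT held without any 1 library of the comparison, with log2 fold changes of 1.01 to 1.21. In rice this locus is known to give a plastid form in leaves and a cytosolic form in endosperm, and counts per gene sum both.

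The other small subunit gene, AGPS1, had 24.7, 22.1 and 36.1 CPM in Ko1, 41.9, 15.4 and 64.3 CPM in OE and 19.4, 24.1 and 28.5 CPM in WT at 15DAF. Ko1 and WT libraries overlapped, and the OE libraries spread over a range that covered both other groups. AGPS1 did not pass the test against WT (0.204, edgeR adjusted p = 0.759) or OE (−0.55, edgeR adjusted p = 0.351). AGPL, a large subunit gene also called OsAGPL3, had 34.1, 36.04 and 71.3 CPM in Ko1, 51.3, 8.92 and 135 CPM in OE and 12.04, 11.8 and 15.3 CPM in WT. Every Ko1 library was above every WT library, and the OE libraries ran from below WT to above Ko1. Its log2 fold change over WT was 1.85 (SE 0.624) and just missed the threshold (edgeR adjusted p = 0.0638). It passed in 5 alternatives, among them the fit without WT 5DAF replicate 3, a library outside this comparison (1.86, edgeR adjusted p = 0.0449), in which 6 of the 10 genes were higher against 8.81% of all genes, and DESeq2 (1.86, DESeq2 adjusted p = 0.0443).

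GBSSII, which makes amylose in leaf starch granules, had 675, 789 and 1332 CPM in Ko1, 549.9, 317 and 847 CPM in OE and 354, 398 and 417 CPM in WT at 15DAF. Ko1 libraries were all above WT libraries, replicate 3 by far the most, and OE libraries overlapped both groups. GBSSII rose in Ko1 over WT by 1.26 log2 units (SE 0.363, edgeR adjusted p = 0.0352) and did not pass against OE (0.71, edgeR adjusted p = 0.2). SSI, the soluble synthase that lengthens short amylopectin chains, had 113, 121 and 183 CPM in Ko1, 99.7, 60.9 and 141 CPM in OE and 45.8, 63.4 and 70.9 CPM in WT. The pattern was like that of GBSSII, with Ko1 clear of WT and OE spread across both. SSI rose in Ko1 over WT by 1.21 (SE 0.327, edgeR adjusted p = 0.0263) and did not pass against OE (0.47, edgeR adjusted p = 0.355). Both calls against WT ended without Ko1 15DAF replicate 3 (GBSSII 0.92, SSI 0.98) or without any 1 of the WT 15DAF libraries (GBSSII 1.21 to 1.32, SSI 1.06 to 1.36). In these fits 3 of the 10 genes were called higher. Calls over all genes fell as well, to 4.75% higher without Ko1 15DAF replicate 3 and to 2.60%, 2.43% and 2.93% higher without WT 15DAF replicates 1, 2 and 3.

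The 3 branching enzymes parted at 15DAF. BEIIb, known mainly from endosperm, had 7.99, 7.92 and 10.1 CPM in Ko1, 3.63, 2.696 and 3.83 CPM in OE and 2.85, 2.31 and 3.04 CPM in WT, so that Ko1 lay clear above overlapping OE and WT libraries. BEIIb rose in Ko1 by 1.66 log2 units over WT (SE 0.334, edgeR adjusted p = 0.00585) and by 1.36 over OE (SE 0.329, edgeR adjusted p = 0.0135), although the second call ended without OE 15DAF replicate 2 (1.23). BEIIa, the branching enzyme II form of leaves and other tissues, had 13.9, 65.4 and 41.1 CPM in Ko1, 102, 84.8 and 177 CPM in OE and 54.7, 70.1 and 59.9 CPM in WT. All OE libraries were above all Ko1 and WT libraries, and the Ko1 libraries spread widely and overlapped WT. BEIIa fell by 1.597 log2 units in Ko1 relative to OE (SE 0.428, edgeR adjusted p = 0.0215) and did not pass against WT (−0.62, edgeR adjusted p = 0.347). The call against OE ended without Ko1 15DAF replicates 1 or 3 (−1.17 and −1.596) or OE 15DAF replicate 3 (−1.22). BEI, which acts mainly on longer chains, had 134, 247 and 149 CPM in Ko1, 207, 211 and 260.0 CPM in OE and 179, 199 and 171 CPM in WT, with Ko1 overlapping both other groups. It did not pass against WT (−0.05, edgeR adjusted p = 0.893) or OE (−0.36, edgeR adjusted p = 0.249), but it was lower than in OE without Ko1 15DAF replicate 2 (−0.68, edgeR adjusted p = 0.0194).

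GPT1 had 46.6, 42.6 and 59.1 CPM in Ko1, 24.1, 20.9 and 25.8 CPM in OE and 14.3, 14.96 and 22.9 CPM in WT at 15DAF. Ko1 lay clear above the other genotypes, which overlapped. GPT1 rose in Ko1 by 1.502 log2 units over WT (SE 0.296, edgeR adjusted p = 0.00518) and by 1.07 over OE (SE 0.292, edgeR adjusted p = 0.0242). The call against WT held without any 1 library (1.37 to 1.76), and the call against OE ended without Ko1 15DAF replicate 3 (0.93) or any 1 OE 15DAF library (0.999 to 1.13). PHOL had 52.01, 79.8 and 86.4 CPM in Ko1, 145, 99.9 and 219 CPM in OE and 106, 120.1 and 108 CPM in WT, with every Ko1 library below every OE and WT library. PHOL fell by 1.09 log2 units in Ko1 relative to OE (SE 0.316, edgeR adjusted p = 0.0314), and −0.61 relative to WT did not pass (edgeR adjusted p = 0.206). The call against OE ended without Ko1 15DAF replicate 1 (−0.88) or OE 15DAF replicates 1 or 3 (−1.13 and −0.76).

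**Figure D2:**
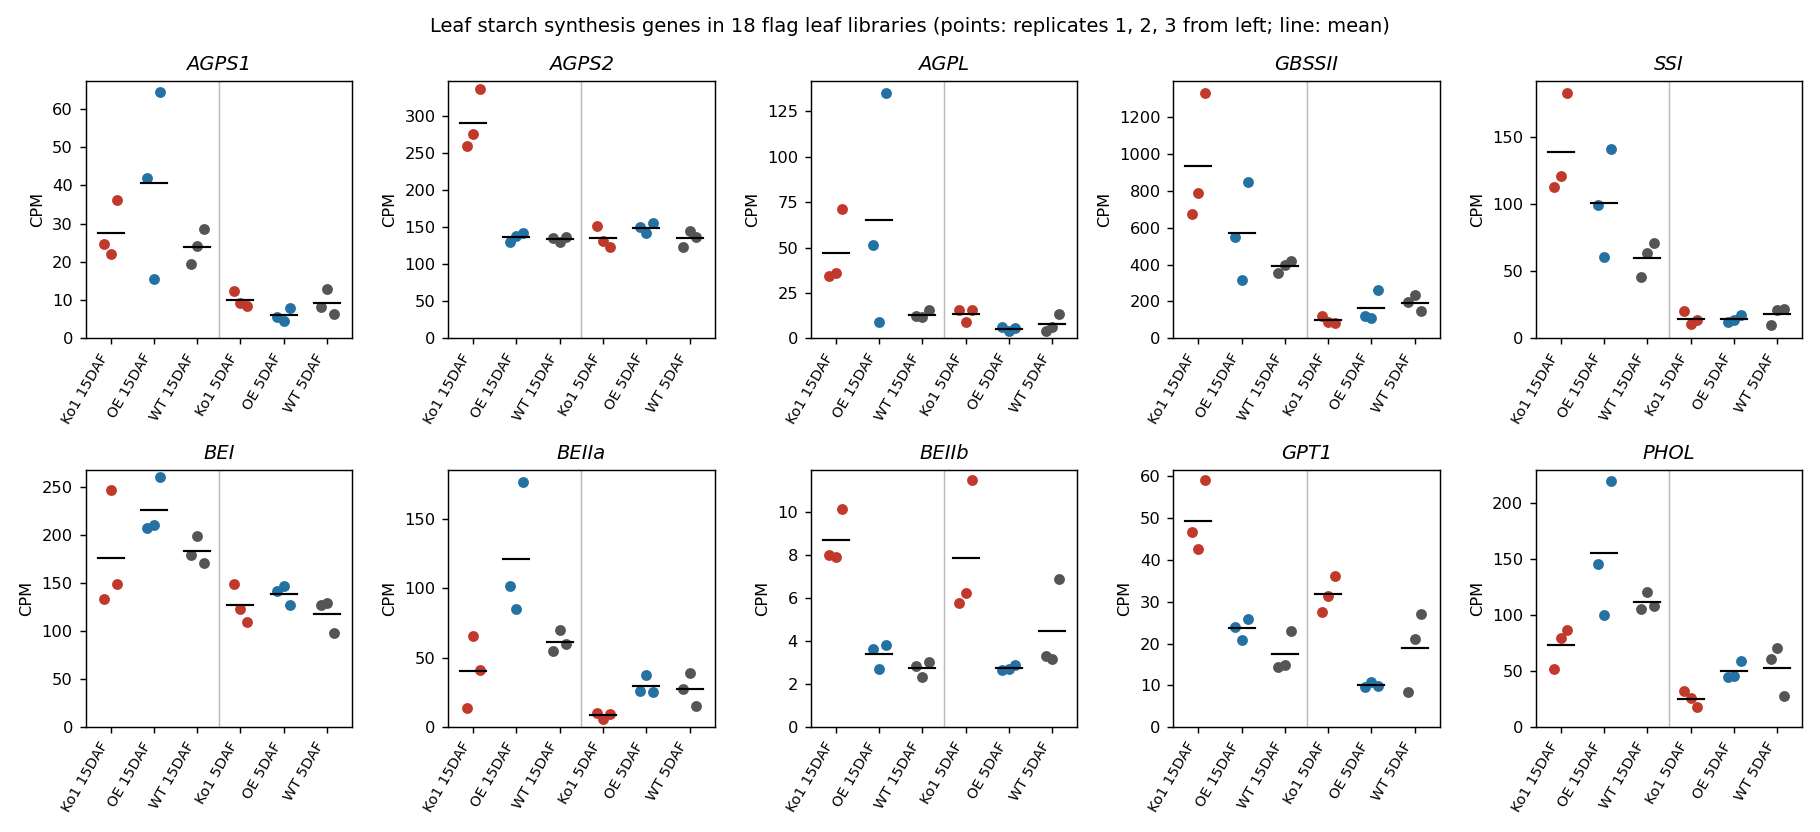
CPM of each gene in each of the 18 libraries, on a linear axis from 0, by group; points are replicates 1, 2 and 3 from left and the line is the mean. Ko1 15DAF stands above the other 5 groups for AGPS2 and GPT1, both Ko1 groups have the highest means for BEIIb, and OE 15DAF replicate 2 lies low and replicate 3 high in most panels.

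Against OE at 15DAF, 3 of the 10 genes were higher in Ko1 (AGPS2, BEIIb and GPT1) and 2 were lower (BEIIa and PHOL), where 7.69% of all genes were higher and 5.64% lower. The comparisons of Ko1 with WT and of Ko1 with OE share the Ko1 libraries, and those of Ko1 and OE with WT share the WT libraries, so their results are not independent. Transcripts that mark grains were also followed, and their levels differed by gene. Of 10 such genes 5 passed the filter, and their summed level was 108.9 to 140.3 CPM in Ko1, 100.6 to 102.5 CPM in OE and 78.4 to 106.1 CPM in WT at 15DAF. A glutelin (LOC_Os02g15150) and a prolamin (LOC_Os05g26350) were at 0 in all 9 libraries of this stage, and 3 of the list are starch genes themselves. Highest of the list by mean was AGPL2, a starch gene. It had 53.9, 89.9 and 73.6 CPM in Ko1, 52.0, 44.5 and 46.9 CPM in OE and 44.2, 57.1 and 24.2 CPM in WT. LOC_Os03g55730 averaged 36.2 CPM in Ko1, 41.3 CPM in OE and 38.6 CPM in WT, and the glutelin LOC_Os10g26060 14.5, 10.48 and 10.49 CPM. By edgeR 0 of the 5 passed in Ko1 against WT or OE, while in each comparison 1 had an unadjusted p under 0.05 and DESeq2 called 1. The part of grain or other cells in the levels of BEIIb and GPT1 was not tested.

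Between OE and WT leaves at 15DAF 0 of the 10 genes passed the test by edgeR or DESeq2. At the threshold 0.0245% of all genes were called by edgeR and 0.122% by DESeq2, and 3 of the 10 genes (AGPL, SSI and BEIIa) had an unadjusted p under 0.05, as had 3.16% of all genes. All 10 log2 fold changes were above 0, with a median of 0.51 against 0.002 over all genes. They ran from 0.03 for AGPS2 to 2.31 for AGPL (SE 0.631, edgeR adjusted p = 0.632). All 3 OE libraries lay above the WT libraries for BEI (0.305) and BEIIa (0.98), each at an edgeR adjusted p of 1.0. The share of all genes without overlap was not counted for this comparison, so this only describes these genes.

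The OE 15DAF libraries differed from each other in an ordered way over these genes. Replicate 3 had the highest level of the group for 10 of 10 genes, where it was highest for 33.1% of all genes. Replicate 2 had the lowest for 8 of 10, where it was lowest for 32.2% of all genes. OsPHO1;2 was likewise highest in replicate 3 and lowest in replicate 2, as given above. Without OE 15DAF replicate 2, AGPL passed over WT (2.84, edgeR adjusted p = 0.0456). In Ko1 15DAF replicate 3 was highest for 8 of 10 genes (33.1% of all genes), and replicate 1 was lowest for 7 of 10 (28.4% of all genes). The leaf markers in these libraries, in the same order of replicates 1 to 3, summed to 12297, 22050.4 and 8283 CPM in Ko1 and 11358, 12501 and 10856 CPM in OE. By edgeR 1 of the 7 was higher in Ko1 than in OE at 15DAF. Their part in the spread was not tested.

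**Figure D3:**
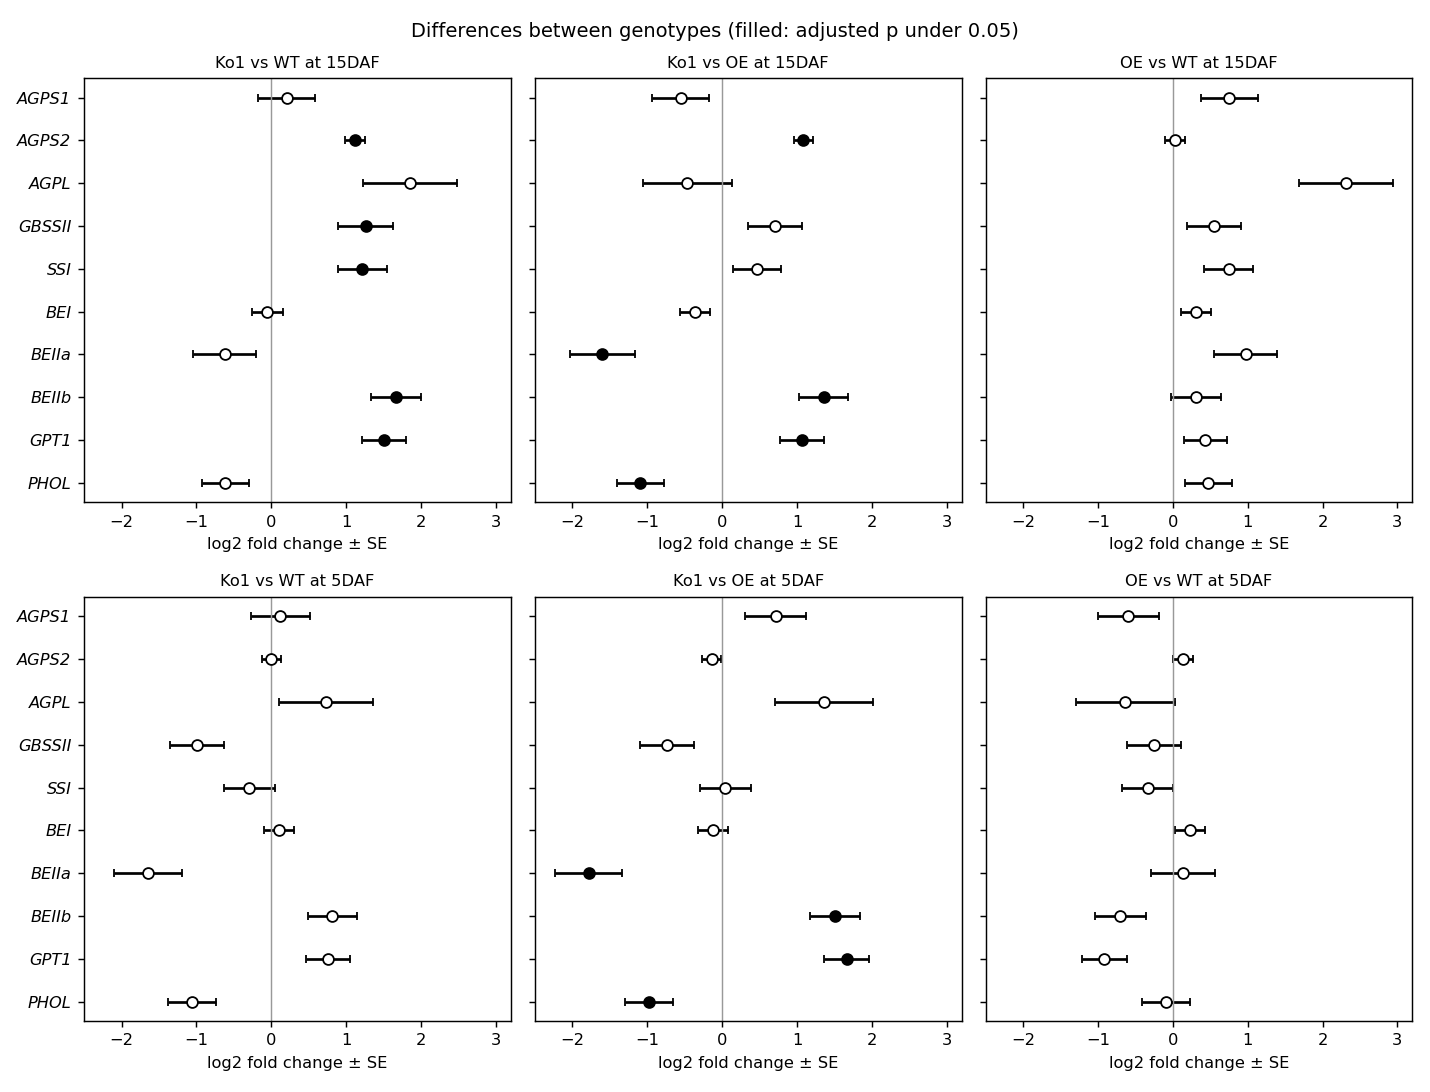
Log2 fold change (x axis, with its SE) of each gene between genotypes at 15DAF (upper panels) and 5DAF (lower panels), the first named over the second; filled points passed an edgeR adjusted p of 0.05. AGPS2, BEIIb and GPT1 lie right of 0 in both Ko1 panels at 15DAF, BEIIa and PHOL lie left of 0 in all 4 Ko1 panels, and the OE panels hold no filled point.

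At 5DAF 0 of the 10 genes passed between Ko1 and WT by edgeR, in a comparison where 0.0147% of all genes were called. Unadjusted p-values were under 0.05 for 5 of the 10 genes and 19.4% of all genes. DESeq2 called 2 of the 10 lower in Ko1, BEIIa and PHOL (DESeq2 adjusted p = 0.0172 and 0.0434), against 2.47% of all genes. Without the library labelled WT 5DAF replicate 3, BEIIb and GPT1 were higher (2 of 10, against 6.0% of all genes) and BEIIa and PHOL lower (2 of 10, against 7.41%).

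Per library at 5DAF, BEIIb had 5.78, 6.23 and 11.5 CPM in Ko1, 2.65, 2.69 and 2.88 CPM in OE and 3.31, 3.14 and 6.89 CPM in WT. Ko1 lay above OE throughout and overlapped WT through the third library of WT. The log2 fold change over WT was 0.81 (edgeR adjusted p = 0.199) and 1.27 without that library (edgeR adjusted p = 0.018). GPT1 had 27.5, 31.5 and 36.2 CPM in Ko1, 9.48, 10.8 and 9.74 CPM in OE and 8.48, 20.995 and 27.1 CPM in WT. Ko1 was the highest group, its lowest library only just above the highest of WT, and the WT libraries spread widely. For GPT1 the log2 fold change over WT was 0.75 (edgeR adjusted p = 0.189), and 1.11 without WT 5DAF replicate 3 (edgeR adjusted p = 0.0221).

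BEIIa had 10.4, 6.05 and 9.71 CPM in Ko1, 26.1, 37.8 and 25.6 CPM in OE and 27.3, 39.2 and 15.2 CPM in WT at 5DAF, and PHOL had 31.97, 25.9 and 18.1 CPM in Ko1, 44.9, 45.5 and 58.7 CPM in OE and 60.98, 70.03 and 27.7 CPM in WT. For both genes Ko1 lay below every OE library. For BEIIa it also lay below every WT library, and for PHOL only WT 5DAF replicate 3 fell within the Ko1 range. BEIIa was at −1.65 log2 units relative to WT (edgeR adjusted p = 0.122), and −1.94 without that library (edgeR adjusted p = 0.0122). PHOL was at −1.06 (edgeR adjusted p = 0.131), and −1.38 without it (edgeR adjusted p = 0.00734).

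Ko1 against OE at 5DAF does not use the WT libraries except for the shared estimate of spread. There 2 of the 10 genes were higher in Ko1 (GPT1 and BEIIb) and 2 lower (BEIIa and PHOL), where 8.41% of all genes were higher and 7.93% lower. GPT1 rose by 1.66 (SE 0.303, edgeR adjusted p = 0.00981) and BEIIb by 1.51 (SE 0.336, edgeR adjusted p = 0.0145). BEIIa fell by 1.78 (SE 0.4497, edgeR adjusted p = 0.0193) and PHOL fell by 0.97 (SE 0.321, edgeR adjusted p = 0.0474). Without Ko1 5DAF replicate 3 none of the 4 passed, at 1.56 for GPT1, 1.13 for BEIIb, −1.87 for BEIIa and −0.78 for PHOL. Nearly every call of the comparison ended there, with 0.221% of all genes called in either direction. The BEIIb call also ended without OE 5DAF replicate 3 (1.55), the BEIIa call without Ko1 5DAF replicate 2 (−1.58) or OE 5DAF replicates 2 or 3 (−1.58 and −1.88), and the PHOL call without Ko1 5DAF replicate 2 (−1.001) or any 1 OE 5DAF library (−1.05 to −0.84). Of the 7 leaf markers 3 were lower in Ko1 than in OE at 5DAF, and their summed level was 13310 to 15752 CPM in Ko1 and 21295 to 23462 CPM in OE. Grain markers summed to 94.3 to 124.8 CPM in Ko1 and 71.1 to 88.3 CPM in OE, and 1 of the 5 tested, the glutelin LOC_Os10g26060, was higher in Ko1 by 0.604. Their part in these results was not tested.

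The other 6 genes did not pass between any genotypes at 5DAF. AGPS2 had 151, 132 and 123 CPM in Ko1, 149.8, 142 and 156 CPM in OE and 124, 145 and 137 CPM in WT, so that its 9 libraries lay close together and the groups overlapped. GBSSII had 120.2, 86.9 and 84.1 CPM in Ko1, 119, 108 and 259.8 CPM in OE and 199, 234 and 146 CPM in WT. Every Ko1 library of GBSSII was below every WT library, the opposite of 15DAF, at −0.99 log2 units without passing (edgeR adjusted p = 0.172), and −1.16 without WT 5DAF replicate 3 (edgeR adjusted p = 0.0602). SSI had 20.2, 10.4 and 13.4 CPM in Ko1, 11.9, 13.5 and 17.2 CPM in OE and 10.1, 21.5 and 22.2 CPM in WT, with all groups overlapping. AGPS1 had 12.4, 9.19 and 8.47 CPM in Ko1, 5.61, 4.63 and 8.02 CPM in OE and 8.28, 13.03 and 6.36 CPM in WT. AGPL had 15.6, 8.82 and 15.6 CPM in Ko1, 5.99, 3.81 and 5.69 CPM in OE and 4.21, 6.21 and 13.6 CPM in WT. For both of these subunit genes every Ko1 library was above every OE library, and WT overlapped both groups. BEI had 149, 123 and 110.0 CPM in Ko1, 142, 147 and 127 CPM in OE and 127, 129 and 98.4 CPM in WT, with overlap throughout. Relative to WT, Ko1 was at 0.73 for AGPL, −0.29 for SSI, 0.12 for AGPS1 and 0.105 for BEI. Without WT 5DAF replicate 3 these were 1.35 for AGPL, −0.11 for SSI, −0.09 for AGPS1 and −0.02 for BEI, and none passed.

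Between OE and WT at 5DAF 0 of the 10 genes passed by edgeR or DESeq2, where 0.0391% of all genes were called by edgeR and 0.460% by DESeq2. Of the 10 genes 1 (GPT1) had an unadjusted p under 0.05, against 7.19% of all genes. GPT1 was at −0.91 log2 units (edgeR adjusted p = 0.452), and it was lower in OE without WT 5DAF replicate 1, its lowest WT library (−1.25, edgeR adjusted p = 0.0222). Without WT 5DAF replicate 3 GPT1 was at −0.54. The median over the 10 genes was −0.29, against −0.005 over all genes, and −0.19 without that library, against 0.011.

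Between the stages 7 of the 10 genes were higher at 15DAF than at 5DAF in Ko1, 8 in OE and 4 in WT, and 0 were lower in any genotype. Of all genes 10.5% were higher and 9.58% lower in Ko1, 13.1% and 13.6% in OE, and 7.57% and 9.15% in WT. The median log2 fold change of the 10 genes was 1.495 in Ko1, 1.73 in OE and 0.86 in WT, while that of all genes lay between −0.023 and 0.02. Stage is a single pair of samplings here, so age of the leaf and conditions at sampling cannot be told apart, and the hour of sampling is not given in the sources used here. Of the 5 grain markers tested, 0 passed between the stages in any genotype by edgeR (1 in each genotype at an unadjusted p under 0.05; 1 by DESeq2 in OE, 0 in Ko1 and WT). Of the 7 leaf markers 1 was higher and 1 lower at 15DAF in Ko1, 3 were lower in OE and 2 lower in WT, with 0 higher in OE and WT. Their median log2 fold change was 0.366 in Ko1, −0.796 in OE and −0.169 in WT, and their part in the stage results was not tested.

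SSI and AGPS1 rose with stage in every genotype. SSI averaged 139 ± 38.6 CPM at 15DAF and 14.7 ± 5.03 CPM at 5DAF in Ko1 (SD, n = 3 each, as in the values that follow), 101 ± 40.3 and 14.2 ± 2.72 CPM in OE, and 60.04 ± 12.9 and 17.9 ± 6.76 CPM in WT. Its log2 fold changes were 3.25 in Ko1 (SE 0.356, edgeR adjusted p = 7.35e-06), 2.82 in OE (SE 0.352, edgeR adjusted p = 1.82e-05) and 1.74 in WT (SE 0.338, edgeR adjusted p = 0.00193). No library of SSI at 15DAF overlapped with one of the same genotype at 5DAF. AGPS1 averaged 27.6 ± 7.43 CPM at 15DAF and 10.02 ± 2.08 CPM at 5DAF in Ko1, with log2 fold changes of 1.47 in Ko1, 2.73 in OE and 1.38 in WT (edgeR adjusted p = 0.0134, 0.000108 and 0.0225). The AGPS1 call ended in Ko1 without Ko1 5DAF replicates 2 or 3 or Ko1 15DAF replicate 3 (1.22 to 1.403), and in WT without WT 5DAF replicates 1 or 3 or WT 15DAF replicates 2 or 3 (1.15 to 1.36).

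PHOL also rose in all 3 genotypes, by 1.52 in Ko1, 1.64 in OE and 1.07 in WT (edgeR adjusted p = 0.00268, 0.00104 and 0.0269). It averaged 72.7 ± 18.3 CPM at 15DAF and 25.3 ± 6.95 CPM at 5DAF in Ko1, below the OE and WT means of each stage. The WT call of PHOL ended without WT 5DAF replicate 3 (0.74) or any 1 WT 15DAF library (0.998 to 1.08). BEI rose in OE by 0.71 (edgeR adjusted p = 0.0151) and in WT by 0.63 (edgeR adjusted p = 0.0402), and it was at 0.47 in Ko1 without passing (edgeR adjusted p = 0.113). Both BEI calls were fragile. The OE call ended without OE 5DAF replicates 1 or 3 or OE 15DAF replicate 3 (0.596 to 0.697), the WT call without any 1 WT library (0.49 to 0.699), and in Ko1 BEI passed without Ko1 15DAF replicate 1 (0.64).

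GBSSII averaged 932 ± 351 CPM at 15DAF and 97.1 ± 20.1 CPM at 5DAF in Ko1, 571 ± 266 and 162 ± 84.8 CPM in OE, and 389.9 ± 32.1 and 193 ± 43.95 CPM in WT. It rose by 3.26 in Ko1 (SE 0.391, edgeR adjusted p = 1.66e-05) and by 1.82 in OE (SE 0.369, edgeR adjusted p = 0.00139), and its 1.02 in WT did not pass (edgeR adjusted p = 0.0638). BEIIa rose by 2.21 in Ko1 (edgeR adjusted p = 0.00206) and 2.02 in OE (edgeR adjusted p = 0.00222), with 1.18 in WT (edgeR adjusted p = 0.0692), which passed without WT 5DAF replicate 2 (1.53). In WT both GBSSII and BEIIa passed with no filter (edgeR adjusted p = 0.0438 and 0.0407), with the WT groups alone (edgeR adjusted p = 0.0138 and 0.0348) and with DESeq2 (DESeq2 adjusted p = 0.0266 and 0.0332). DESeq2 called 6 of the 10 genes higher in WT, against 9.38% of all genes. AGPL rose by 3.66 in OE (edgeR adjusted p = 0.000701), or by 2.55 without OE 15DAF replicate 3. It rose by 1.83 in Ko1 (edgeR adjusted p = 0.0479), a call that ended without any 1 Ko1 library (1.397 to 2.01), and it was at 0.71 in WT (edgeR adjusted p = 0.506).

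AGPS2 rose with stage in Ko1 by 1.102 (SE 0.131, edgeR adjusted p = 1.57e-05), and its libraries overlapped between the stages in OE (−0.12, edgeR adjusted p = 0.528) and WT (−0.02, edgeR adjusted p = 0.955). GPT1 rose in OE by 1.24 (edgeR adjusted p = 0.00552), was at 0.64 in Ko1 (edgeR adjusted p = 0.138), and at −0.11 in WT (edgeR adjusted p = 0.842). BEIIb passed in no genotype, with 0.15 in Ko1, 0.305 in OE and −0.702 in WT. Without the library labelled WT 5DAF replicate 3, SSI (1.91) was the only one of the 10 genes called higher in WT, 1 of 10 against 6.27% of all genes. Among those not called the WT values were then 1.31 for AGPL, 0.83 for GBSSII, 0.87 for BEIIa, −0.26 for BEIIb, −0.03 for AGPS2 and 0.23 for GPT1, the last with its sign reversed. The median of the 10 was 0.785 without that library.

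**Figure D4:**
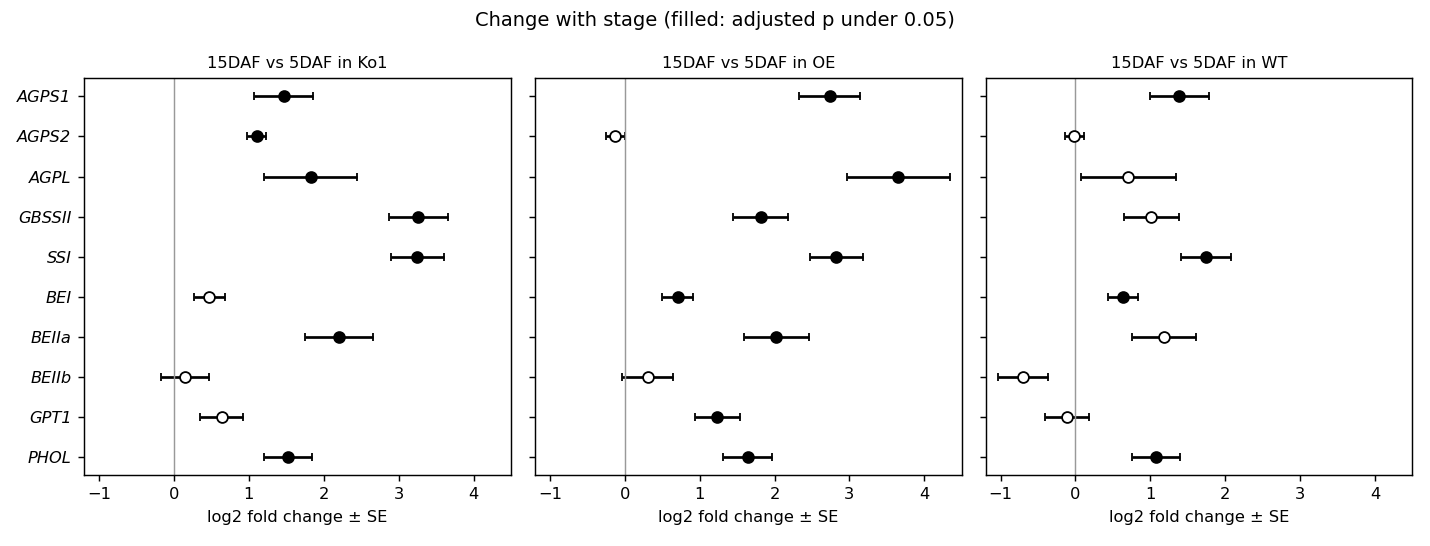
Log2 fold change of 15DAF over 5DAF (x axis, with its SE) for each gene in Ko1, OE and WT; filled points passed an edgeR adjusted p of 0.05. SSI, AGPS1 and PHOL are filled in all 3 panels, AGPS2 only in the Ko1 panel, and no filled point lies left of 0.

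The difference of Ko1 from WT was itself compared between the stages. AGPS2 was the only one of the 10 genes whose Ko1 effect changed by edgeR, larger at 15DAF than at 5DAF by 1.12 log2 units (SE 0.184, edgeR adjusted p = 0.00967), where 0.460% of all genes changed in that direction. The change was 1.02 to 1.21 and still passed when any 1 library was left out (edgeR adjusted p = 0.00818 to 0.0443), but in a fit of the 4 Ko1 and WT groups alone it did not pass (1.12, edgeR adjusted p = 0.0634). GBSSII had the largest estimate, 2.25 (SE 0.513), and did not pass (edgeR adjusted p = 0.0581). Without WT 5DAF replicate 3 the changes were 1.12 for AGPS2 and 2.43 for GBSSII (edgeR adjusted p = 0.0191 and 0.0613). It passed with DESeq2 (2.25, DESeq2 adjusted p = 0.00182), with no filter on low counts (2.25, edgeR adjusted p = 0.0224) and in the fit of the 4 groups alone (2.25, edgeR adjusted p = 0.0402). The other 8 genes lay between −0.16 (BEI) and 1.505 (SSI) without passing. For BEIIb and GPT1, which were called in Ko1 against WT at 15DAF and not at 5DAF, the change was 0.85 and 0.75 (edgeR adjusted p = 0.713 and 0.717), so a difference between the stages is not shown. They were 0.41 and 0.403 without WT 5DAF replicate 3.

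The effect of OE changed between the stages in 0 of the 10 genes and in 0% of all genes by edgeR, and in 0 of the 10 and 0.0649% of all genes by DESeq2. Of the 10 genes 5 (AGPS1, AGPL, SSI, BEIIb and GPT1) had an unadjusted p under 0.05, against 6.0% of all genes. AGPL had the largest estimate, 2.95 (SE 0.907, edgeR adjusted p = 0.814), and 2.32 without WT 5DAF replicate 3. Whether a stage effect differed between Ko1 and OE was not tested.

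The rest of the starch pathway was followed in 20 other synthesis genes, of which 19 were in the table and 15 were tested, and 18 breakdown genes, of which 16 were tested. In Ko1 against WT at 15DAF 1 of 15 other synthesis genes was higher and 0 lower, a share near that of all genes (6.53% and 4.43%). It was the plastid phosphoglucomutase, which makes the substrate of ADP-glucose pyrophosphorylase, with 333, 338 and 518 CPM in Ko1, 222, 184 and 304 CPM in OE and 160.1, 178 and 149 CPM in WT (1.29, edgeR adjusted p = 0.00666). Ko1 lay clear above both other genotypes, and OE above WT. SSIIb, a soluble synthase, had 78.2, 142 and 59.9 CPM in Ko1, 205, 182 and 175 CPM in OE and 197, 201 and 190.1 CPM in WT, with every Ko1 library below all others, and did not pass (−1.07 relative to WT, edgeR adjusted p = 0.0647). SSIIIb, another soluble synthase, averaged 398 ± 113 CPM in Ko1, 391 ± 42.04 CPM in OE and 306 ± 24.7 CPM in WT. The median over the 15 genes was 0.15, against 0.01 over all genes.

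In Ko1 against WT at 15DAF 3 of 16 breakdown genes were higher and 0 lower, against 6.53% and 4.43% of all genes. All 3 are beta-amylases, a family that releases maltose from starch but includes members without that activity in Arabidopsis. LOC_Os10g41550 had 6.16, 20.6 and 13.7 CPM in Ko1, 4.53, 3.34 and 4.397 CPM in OE and 4.42, 3.81 and 3.25 CPM in WT (1.82, edgeR adjusted p = 0.00634). LOC_Os07g35880 had 3.33, 11.6 and 7.89 CPM in Ko1, 1.07, 1.22 and 2.76 CPM in OE and 0.784, 2.18 and 1.14 CPM in WT (2.47, edgeR adjusted p = 0.0255). In both the Ko1 libraries lay above all others, replicate 2 the highest. The third, LOC_Os03g22790, stood at 6.88 CPM in Ko1 15DAF replicate 2 and below 2 CPM in every other library of that stage (3.07, edgeR adjusted p = 0.0302), and its call ended without that library (1.91). It ended also without any 1 WT 15DAF library (2.63 to 3.75), as did that of LOC_Os07g35880 (2.22 to 2.98), which was also lost without Ko1 15DAF replicates 2 or 3 (2.03 to 2.47).

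Against OE at 15DAF 4 of 16 breakdown genes were higher in Ko1 and 0 lower, against 7.69% and 5.64% of all genes. They were the same 3 beta-amylases and LOC_Os03g04770 (1.37, edgeR adjusted p = 0.0279). The log2 fold changes of the 3 were 1.72 for LOC_Os10g41550, 2.17 for LOC_Os07g35880 and 3.45 for LOC_Os03g22790. Without Ko1 15DAF replicate 2 the calls of LOC_Os03g04770, LOC_Os03g22790 and LOC_Os07g35880 ended (0.79, 2.29 and 1.73). They ended also without OE 15DAF replicates 1 or 2, the first 2 of them without OE 15DAF replicate 3, and that of LOC_Os07g35880 without Ko1 15DAF replicate 3 (2.16). None of the 15 other synthesis genes passed against OE at 15DAF by edgeR, while 4 had an unadjusted p under 0.05 and DESeq2 called 3. These shares are near those of all genes, of which 29.4% had an unadjusted p under 0.05 and DESeq2 called 18.5%.

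At 5DAF 7.93% of all genes were lower and 8.41% higher in Ko1 than in OE. Ko1 was lower than OE in 4 of the 15 other synthesis genes and higher in 0. They were the starch synthases SSIIb (−1.55) and SSIIIb (−1.06), the large subunit gene AGPL1 (−0.599) and FLO6 (−0.75), described in the table as related to AMP-activated protein kinase (edgeR adjusted p = 0.0164, 0.0246, 0.0299 and 0.0474). SSIIb had 51.8, 36.8 and 43.7 CPM in Ko1, 122, 119 and 147 CPM in OE and 137, 143 and 37.2 CPM in WT, where again only WT 5DAF replicate 3 lay in the Ko1 range. Of 16 breakdown genes 2 were higher in Ko1, the beta-amylases LOC_Os10g32810 (3.995) and LOC_Os03g04770 (1.61). The 2 lower were the dikinase PWD (−0.52) and the beta-amylase LOC_Os01g13550 (−0.87). Both breakdown counts lie near the shares of all genes. LOC_Os10g32810 stood at 73.9 CPM in Ko1 5DAF replicate 3 and at 4.04 CPM or less in every other 5DAF library, and without that replicate its log2 fold change was 0.397. Without Ko1 5DAF replicate 3, where 0.221% of all genes were called, none of these 8 calls passed, at −1.55 for SSIIb, −0.83 for SSIIIb, −0.46 for AGPL1, −0.77 for FLO6, 0.91 for LOC_Os03g04770, −0.46 for PWD and −0.93 for LOC_Os01g13550. Without OE 5DAF replicate 3, where 2.27% of all genes were called, again none of the 8 passed, and the calls other than SSIIb ended also without one or more further libraries of the comparison. Neither list had a call in Ko1 against WT at 5DAF or in OE against WT at either stage by edgeR. In Ko1 against WT at 5DAF 5 of 15 other synthesis and 6 of 16 breakdown genes had an unadjusted p under 0.05. The share of all genes was 19.4%. DESeq2 called 2 and 0 in these lists, where it called 266 higher and 494 lower of 20019 genes. In OE against WT at 15DAF the unadjusted counts were 1 and 3, against 3.16% of all genes. At 5DAF both counts were 0, against 7.19%. DESeq2 called 0 in each, against 0.122% of all genes at 15DAF and 0.460% at 5DAF.

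With stage, 5 of 15 other synthesis genes were higher at 15DAF in Ko1 and 0 lower, 6 were higher and 1 lower in OE, and 1 was higher and 1 lower in WT. Of all genes 10.5% were higher and 9.58% lower in Ko1, 13.1% and 13.6% in OE, and 7.57% and 9.15% in WT. SSIIIb rose in all 3 genotypes, by 3.35 in Ko1, 2.26 in OE and 1.96 in WT (edgeR adjusted p = 1.3e-06, 2.58e-05 and 0.000211). It averaged 398 ± 113 CPM at 15DAF and 39.2 ± 14.7 CPM at 5DAF in Ko1. Plastid phosphoglucomutase rose in Ko1 (1.79) and OE (0.89), as did plastid phosphoglucose isomerase, which makes glucose 6-phosphate (1.23 in Ko1 and 1.28 in OE). The call of phosphoglucomutase in OE ended without OE 5DAF replicates 2 or 3 or OE 15DAF replicate 3 (0.67 to 0.89). BT1-2, a carrier of the Brittle1 family, rose in Ko1 by 1.17 and in OE by 0.89 (edgeR adjusted p = 0.0186 in OE). The BT1-2 call in OE ended without OE 5DAF replicates 1 or 3 or OE 15DAF replicates 1 or 3. The debranching enzyme ISA1, which trims amylopectin during its synthesis, rose in OE by 1.31 (edgeR adjusted p = 0.0321). The ISA1 call ended without OE 5DAF replicates 2 or 3 or OE 15DAF replicates 1 or 3 (1.03 to 1.24). FLO6 fell in OE (−1.65) and WT (−1.11). Of 16 breakdown genes 6 were higher and 0 lower in Ko1, 6 higher and 1 lower in OE, and 2 higher and 1 lower in WT. The WT counts of both lists lie near the shares over all genes given above. ISA3, a debranching enzyme of starch breakdown, and DPE2, the cytosolic glucanotransferase that handles maltose, rose in Ko1 (1.63 and 1.28) and OE (1.45 and 1.01).

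Across the 18 libraries the 10 genes differed in which of them moved alike, by Pearson's r of log2 CPM. All such values share the libraries, the 6 groups and the stage difference, and they are given as a description. GBSSII and SSI were the most alike pair (r = 0.939), followed by BEIIa and PHOL (0.936). AGPS1 was most like SSI (0.903), AGPL most like AGPS1 (0.846) and BEI most like BEIIa (0.835). BEIIb was most like GPT1 (0.831) and had negative values with BEIIa (−0.502), PHOL (−0.486) and BEI (−0.303). AGPS2, whose level stood out in 1 group, reached at most 0.630, with GBSSII.

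**Figure D5:**
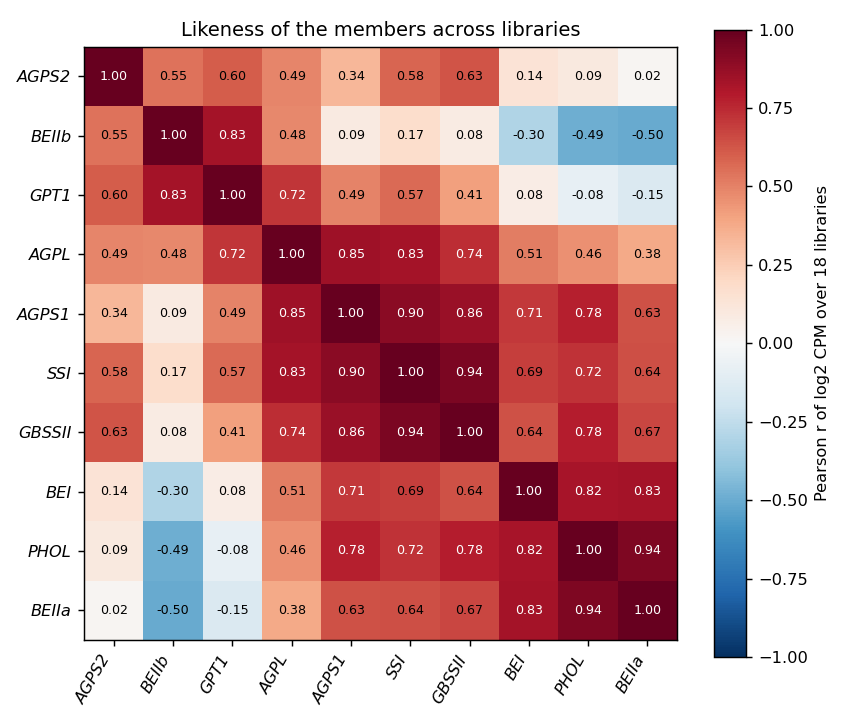
Pearson's r of log2 CPM over 18 libraries between each pair of the 10 genes, on a colour scale from −1 to 1. SSI, GBSSII, AGPS1 and AGPL form a block of values of 0.736 and above, BEI, PHOL and BEIIa another of 0.824 and above, and BEIIb has its highest value with GPT1.

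Outside the 10 genes, those most like SSI were LOC_Os09g38620, described as an NADPH reductase (r = 0.970 over 18 libraries), LOC_Os03g42830, a MATE efflux protein (0.969), and LOC_Os09g36800, a 3-dehydroquinate synthase (0.969). Those most like GPT1 were LOC_Os03g29240, described as PDI (0.946), LOC_Os09g38570, a transcription factor like protein (0.939), and LOC_Os06g12310, an aquaporin (0.932).

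Ordered by mean CPM over the 6 groups, AGPS2 was highest in Ko1 15DAF, clear of the next group, and its other 5 groups lay between 134 ± 3.84 CPM (WT 15DAF) and 149 ± 6.698 CPM (OE 5DAF) with neighbours overlapping. GPT1 was highest in Ko1 15DAF and next in Ko1 5DAF, each clear of the group below it, and lowest in OE 5DAF (10.02 ± 0.722 CPM). BEIIb had the 2 Ko1 groups on top, overlapping with each other, and Ko1 5DAF also overlapped WT 5DAF below it. GBSSII and SSI had the same upper order, Ko1, OE and WT at 15DAF, with overlap between neighbours and a clear step from WT 15DAF down to the 5DAF groups. BEIIa and BEI were highest in OE 15DAF, clear of WT 15DAF, and PHOL was also highest there but overlapped WT 15DAF. BEIIa and PHOL were lowest in Ko1 5DAF, clear of the group above.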

How the data were processed

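Gene counts and FPKM of 18 flag leaf libraries were taken from 1 table deposited by the authors, with units per the file headers. The submitters' processing notes name Bowtie 0.12.2 and the build mm8, a mouse genome. The sources used here do not give the rice build or the counting rule. Counts and FPKM implied the same gene length in every library to within 1.00004 times (14683 genes). The 10 genes, the other lists and the markers were chosen with earlier results of these data known.

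Counts were tested with edgeR 4.0.16 in R 4.3.3 (filterByExpr, TMM scaling, quasi-likelihood F test, 6 group means over all 18 libraries, prior count 2 for log2 CPM). P-values were adjusted by the Benjamini-Hochberg method over the 20437 genes that passed the filter, with a threshold of 0.05. Alternatives were DESeq2 1.42.0, its kind of size factors, no filter, a threshold of 0.01, the replicate number as a block, the groups compared alone and each replicate left out. SD values give the spread of the 3 libraries of a group. SE and p-values rest on a spread estimated for each gene over all libraries in the fit.

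Named are the 10 genes, OsPHO1;2, other starch genes called between genotypes (or, up to 4 in each genotype, the largest called for stage alone) and the genes of most similar pattern, which outside the 10 needed a description and a mean of at least 5 CPM. SSIIb at 15DAF and single grain markers were named after their values were seen. PUL was not matched.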

Additional observations from a re-analysis of the deposited data

Results flagged for a closer look

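The effect of Ko1 relative to WT on AGPS2 differed between the stages by the test of the interaction. It was larger at 15DAF than at 5DAF by 1.12 log2 units (edgeR adjusted p = 0.00967). Of all genes 0.460% changed in that direction. The AGPS2 call was lost in a fit of the Ko1 and WT groups alone. At 15DAF every Ko1 library was above every WT library, and at 5DAF the groups overlapped.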

How the results depend on the processing

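Each group has 3 libraries, and calls near the threshold moved with single libraries. Counts given here are of the 10 genes called, except where all genes are named. At a threshold of 0.01 they were 3 in Ko1 against WT at 15DAF, 1 in Ko1 against OE at each stage and 1 for stage in WT. Over all 20437 genes this threshold gave 431 higher and 188 lower in Ko1 against WT at 15DAF. It gave 554 and 322 in Ko1 against OE at 15DAF, 62 and 28 at 5DAF, and 803 and 878 for stage in WT. With only the groups compared, Ko1 against OE at 15DAF had 3. Over all genes that fit called 1681 higher and 967 lower of 19113. DESeq2 called 2 in Ko1 against WT at 5DAF and 2 in the change of the Ko1 effect, which was also 2 without the filter. Over all genes DESeq2 called 266 higher and 494 lower of 20019 in Ko1 against WT at 5DAF. For the change of the Ko1 effect it called 227 higher and 80 lower of 20416. Without the filter that change had 132 higher and 24 lower of 29055 genes. The cause was not tested. The other counts of the 10 genes outside the leave-one-out fits were within 1.5 times those reported (58 of 66).

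With each replicate left out, the counts ranged from 3 to 6 in Ko1 against WT at 15DAF, 0 to 4 at 5DAF, 0 to 1 in OE against WT at each stage, 2 to 6 in Ko1 against OE at 15DAF and 0 to 4 at 5DAF. They ranged from 5 to 7 for stage in Ko1, 7 to 8 in OE and 1 to 4 in WT, and stayed at 1 for the change of the Ko1 effect and 0 for that of OE. Counts over all genes also moved. Ko1 against WT at 5DAF had 3 called genes in all, 2803 without WT 5DAF replicate 3 and 760 with DESeq2. Ko1 against OE at 5DAF had 3340, from 46 (without Ko1 5DAF replicate 3) to 4334 with a library left out. Ko1 against WT at 15DAF had 2240, from 814 to 3079 with a library left out, and 3498 with DESeq2. Ko1 against OE at 15DAF had 2724, from 1222 to 3319. OE against WT had 5 at 15DAF (3 to 29) and 8 at 5DAF (4 to 60). Stage had 4102 in Ko1 (2725 to 4549), 5455 in OE (3943 to 5918) and 3418 in WT (1907 to 3114). The change of the Ko1 effect had 113 (35 to 142) and that of OE 0 (0 to 3).

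With the replicate number as a block, 6 of the 10 genes were called in Ko1 against WT at 15DAF (AGPL joined, 1.76) and 3 in Ko1 against OE at 5DAF (PHOL was lost). Over all 20437 genes the block gave 1411 higher and 1086 lower in the first comparison and 1714 and 1822 in the second. The numbers do not pair the libraries by the check used: 5 of 45 same-numbered pairs had a correlation over 0.1 (−0.205 to 0.251), and in 0 of 15 pairs of groups did every pair.

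Values near 0 changed sign. AGPS2 in Ko1 against WT at 5DAF (−0.0016) was 0.0104 with DESeq2-type size factors, 0.0012 with the block, 0.0114 with the groups alone and 0.0103 with DESeq2. AGPS2 for stage in WT was 0.0046 without the filter. With single replicates left out these log2 values crossed 0, none of them called. For Ko1 against WT at 15DAF the ranges were AGPS1 −0.0216 to 0.3556 and BEI −0.3731 to 0.1323. For Ko1 against WT at 5DAF the ranges were AGPS1 −0.09 to 0.4482, AGPS2 −0.0916 to 0.0664, BEI −0.0274 to 0.2029 and OsPHO1;2 −0.3551 to 0.3085. For OE against WT at 15DAF the ranges were AGPS2 −0.0067 to 0.0711. For OE against WT at 5DAF the ranges were BEIIa −0.1503 to 0.4881 and PHOL −0.3926 to 0.1649. For Ko1 against OE at 15DAF the ranges were AGPL −0.9767 to 0.6429. For Ko1 against OE at 5DAF the ranges were SSI −0.2626 to 0.2281. For stage in Ko1 the ranges were BEIIb −0.0264 to 0.5156. For stage in WT the ranges were AGPS2 −0.0877 to 0.0376, GPT1 −0.4774 to 0.2299 and OsPHO1;2 −0.2078 to 0.3589. For change of the Ko1 effect between stages the ranges were AGPS1 −0.2467 to 0.3044 and BEI −0.4755 to 0.0319. For change of the OE effect between stages the ranges were BEI −0.0518 to 0.1861.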
